A study of Mus musculus with 4 samples.

Results

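The pre-granulosa cells of the E12.5 ovary were examined here, and were split by whether a transcript of the cell cycle inhibitor gene Cdkn1b was counted in the cell. The members were 2216 of the 4842 cells in the E12.5 library (45.8%, 95% interval 44.4 to 47.2%), or 11.4% of the 19387 cells in the series. They were chosen by their transcripts. A member had a unique molecular identifier (UMI, 1 counted transcript molecule) for at most 1 of 6 germ cell genes (Dazl, Ddx4, Dnd1, Mael, Dppa5a and Mov10l1) and for at least 3 of 5 supporting cell genes (Fst, Wnt4, Wnt6, Irx3 and Runx1). Its mean over the supporting genes was also above its mean over 5 mesothelial genes (Upk3b, Krt19, Krt7, Upk1b and Tm4sf5) and over 5 interstitial genes (Col1a1, Col1a2, Acta2, Mfap4 and Tcf21). Of the cells left out, 789 had more than 1 germ cell gene, 1711 had too few supporting genes and 126 had a higher mesothelial or interstitial mean.

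The mice were C57BL/6, the gonads XX, and no transgene or treatment was named. Gonads were taken from E11.5 to E14.5 at intervals of 1 embryonic day, dissociated with TrypLE and captured on the 10x Chromium system with 3′ version 2 chemistry. Each stage is represented by a single library, so stage and library cannot be told apart, no test or p-value was possible, and the number of embryos or gonads behind a library was not given in the sources used here. The 95% intervals below cover counting error only. The rule found 2164 cells at E11.5, and after E12.5 it found 1793 and then 685 cells in the libraries of E13.5 and E14.5. In the E12.5 library it has 2 mirror images, in which the mesothelial genes (646 cells) or the interstitial genes (386 cells) take the place of the supporting genes, and 619 cells with at least 4 of the 6 germ cell genes served as germ cells.

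The 4 libraries held 4787 to 4916 cells with median depths of 11361 to 14258 UMIs, and members at E12.5 had a median of 11802 UMIs. Cell barcodes were shared by 19 to 36 cells for each pair of libraries. Of the E12.5 members, 18, 16 and 14 had a barcode also seen in the E11.5 library, the E13.5 library and the E14.5 library. Some counts raised a question about the label XX. At E14.5, 172 of the 685 rule cells (25.1%, 21.9 to 28.5%) had a UMI of a Y-linked gene (Ddx3y, Eif2s3y, Kdm5d or Uty), and none did in the other 3 libraries. None of the 685 had 0 or 1 UMI of Xist (median 31). Those 172 cells thus also held Xist and are not shown to be XY. Values at E14.5 include those 172 cells unless stated. Cdkn1b, the summed division genes in the split and some genes plotted by stage are also given without them. A cell without a Y-linked UMI is not shown to lack such transcripts. Among the E12.5 members, which had 0 Y-linked UMIs (3 counts of the total allow up to 0.135% of cells, and the exact binomial upper bound was 0.166%), 141 had at most 1 UMI of Xist, against a median of 28.

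Granulosa cells are the somatic cells that surround and nourish the oocyte. Their precursors, the pre-granulosa cells, are the supporting lineage of the fetal ovary, the counterpart of the Sertoli cells of the testis. WNT4 and RSPO1 signalling through beta-catenin maintains the ovarian programme, FST (follistatin) binds activins, and KITL and BMP2 are ligands sent to germ cells. Cdkn1b encodes p27, which binds cyclin-CDK complexes and holds cells in G1. Pre-granulosa cells of the fetal ovary are known to leave the cell cycle and to carry p27, and division genes such as Mki67, Top2a and cyclin B are transcribed late in the cycle under control of the DREAM and B-MYB-MuvB complexes. Those complexes recognise the cell cycle homology region (CHR) and work with NF-Y, which binds CCAAT boxes.

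Cdkn1b lies at chr6:134920401-134925513 on the plus strand (GRCm38, GENCODE annotation). It has 2 exons, at 134920401-134921394 and 134921956-134925513, and the second holds the end of the coding sequence and the whole 3′ untranslated region, where 3′ tag reads fall. The 150 bases before its start are shown with those of 4 genes of the G2 and mitosis list that were lower in members with Cdkn1b (below), the 4 with the most negative log2 among those with a CHR core in these 150 bases. They were picked for it: of the 16 lower genes of that list with a promoter entry, 7 (43.8%) held a CHR core in the 250 bases before the start. Sequences are from RefSeq (GRCm38.p6), read 5′ to 3′ on the strand of the gene, and capitals mark a CHR core (TTTGAA or, on the other strand, TTCAAA) or a CCAAT box (CCAAT or ATTGG). The stretches are chr6:134920251-134920400 (plus strand) for Cdkn1b, chr2:164769779-164769928 (plus) for Ube2c, chr7:135716380-135716529 (minus) for Mki67, chr4:118437344-118437493 (minus) for Cdc20 and chr11:99024190-99024339 (minus) for Top2a.
Cdkn1b: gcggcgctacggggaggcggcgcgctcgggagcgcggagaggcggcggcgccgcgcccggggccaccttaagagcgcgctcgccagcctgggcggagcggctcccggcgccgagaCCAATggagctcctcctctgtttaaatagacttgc
Ube2c: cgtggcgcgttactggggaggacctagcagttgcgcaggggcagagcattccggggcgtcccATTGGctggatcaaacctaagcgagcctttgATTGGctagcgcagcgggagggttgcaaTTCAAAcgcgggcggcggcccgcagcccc
Mki67: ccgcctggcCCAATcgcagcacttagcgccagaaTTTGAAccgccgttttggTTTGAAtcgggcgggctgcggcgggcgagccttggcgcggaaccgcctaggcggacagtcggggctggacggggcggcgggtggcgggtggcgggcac
Cdc20: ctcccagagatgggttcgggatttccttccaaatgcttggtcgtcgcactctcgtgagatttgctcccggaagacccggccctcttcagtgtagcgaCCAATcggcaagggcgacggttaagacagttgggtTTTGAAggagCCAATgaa
Top2a: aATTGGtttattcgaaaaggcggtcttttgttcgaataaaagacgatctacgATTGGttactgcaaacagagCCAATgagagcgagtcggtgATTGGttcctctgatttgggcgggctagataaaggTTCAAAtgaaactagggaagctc

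Cdkn1b had 1 CCAAT box, 35 bases before the start, and no CHR core in the 150 bases. Ube2c, Cdc20 and Top2a each had a CHR core 29, 18 and 23 bases before the start, with 2, 2 and 4 CCAAT boxes. Mki67 had 2 CHR cores, at 116 and 98 bases, and 1 CCAAT box at 141 bases. In the 250 bases before the start of all 27025 RefSeq genes with a promoter entry, 16.3% held a CHR core, 34.5% a CCAAT box and 5.73% both, counting either strand. Of the 50 genes on the G2 and mitosis list, 43 matched an entry, and 16 of these (37.2%) held a CHR core, 33 (76.7%) a CCAAT box and 15 (34.9%) both. Among the 38 genes on the S phase list, 29 matched, with CHR cores in 5 (17.2%) and CCAAT boxes in 22 (75.9%). These are matches of letters, and no binding was measured.

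The members fitted the label by their markers, which in part chose them. Fst stood at 279 counts per 1000000 UMIs (CPM, interval 273 to 285), Wnt4 at 262 CPM, Wnt6 at 456 CPM, Irx3 at 311 CPM and Runx1 at 105 CPM. The ligand genes Kitl (409 CPM) and Bmp2 (86.2 CPM), which the rule did not use, were also present. In the whole library, members included, Kitl stood at 205 CPM and Bmp2 at 46.8 CPM. Gonadal transcription factor genes were counted at 467 CPM for Wt1, 276 CPM for Lhx9, 219 CPM for Emx2, 123 CPM for Gata4 and 67.0 CPM for Nr5a1. In the whole library they stood at 319, 218, 143, 72.4 and 38.3 CPM in that order, so other cells carried them too. Foxl2, a granulosa cell transcription factor gene, had only 4 UMIs over all members (0.137 CPM, interval 0.0373 to 0.350), and reached at most 0.269 CPM in the rule cells of any stage. The annotation used for counting was not given in the sources used here, so this count was not read as absence of the transcript. Of the Sertoli cell genes, Sox9 stood at 11.3 CPM, Amh at 0.548 CPM and Dhh at 0.479 CPM in members. In the whole library, members included, Sox9 stood lower at 6.55 CPM and Amh at 0.307 CPM. The 15 genes of a testis list together summed to 148 CPM in members with and 131 CPM in members without Cdkn1b.

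Few members had all markers at once. Of the 6 markers Fst, Wnt4, Irx3, Runx1, Kitl and Bmp2, 4 were counted in 32.9% of members, 5 in 36.2% and all 6 in 18.7%. Of the 5 rule genes, 3 were counted in 514 members (23.2%), 4 in 874 (39.4%) and 5 in 828 (37.4%). The members at the threshold of 3 genes had lower values, at 95.8 CPM of Fst, 142 CPM of Irx3 and 99.6 CPM of Cdkn1b. The 220 cells just outside it, with 2 of the 5 genes, had 22.5 CPM of Fst, 62.1 CPM of Irx3 and 40.6 CPM of Cdkn1b. The 126 cells kept out by their means had 24.0 CPM of Fst against 249 CPM of Upk3b and 113 CPM of Col1a2, and 31.8 CPM of Cdkn1b. Fst, Irx3, Upk3b and Col1a2 are genes of the rule, so their levels in these sets follow from how the sets were made.

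Transcripts of other cell types were also counted in members. Germ cell genes outside the rule (12 genes) summed to 34.5 CPM in members against 2721 CPM in germ cells, with Stra8 at 0. The 13 further interstitial genes summed to 190 CPM in members and 1138 CPM in the interstitial rule cells. The 8 further mesothelial genes, which include Wt1, summed to 706 and 962 CPM in members and mesothelial rule cells. Endothelial genes summed to 70.4 CPM, perivascular genes to 10.6 CPM, neural and Schwann genes to 7.29 CPM (Sox10 among the genes at 0) and mesonephric genes to 22.0 CPM (Cdh16, Lhx1 and Emx1 among the genes at 0). Haemoglobin genes were counted in 99.8% of members, at a median of 615 CPM per cell. A set of 31 members carried far more blood or vessel transcripts than the others, 13 of them with over 1% erythroid UMIs, and these are called mixed cells below. They had a median of 26916 UMIs, and 9 of them were also among the 95 members called as doublets.

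Cdkn1b was counted in 1610 of the 2216 members (72.7%, 70.7 to 74.5%) and not in the other 606. The members held 4971 Cdkn1b UMIs, or 170 CPM (165 to 175). A cell had a median of 1 UMI, an upper quartile of 3 and a maximum of 24. After each cell was thinned to 5000 UMIs the share was 48.9%, so a cell without a Cdkn1b UMI can be one in which the transcript was missed. The 2 groups had close depths, with medians of 11732.5 UMIs with and 11970 UMIs without Cdkn1b, 3304 and 3247.5 genes, and 3.73% and 3.48% mitochondrial UMIs.

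Free RNA can put a transcript into cells that do not make it, so the share was read against other cells of the library. Cdkn1b was counted in 21.2% of mesothelial rule cells (median 13824.5 UMIs), 24.1% of interstitial rule cells (12980.5 UMIs) and 17.9% of germ cells (28085 UMIs). Thinned to 5000 UMIs, the shares were 9.29%, 9.84% and 4.20%, against 48.9% in members. In CPM, members stood at 170, interstitial rule cells at 22.7, mesothelial rule cells at 17.5 and germ cells at 8.69. The members were 7.51-fold above the interstitial rule cells (log2 2.91, 2.65 to 3.17) and 9.74-fold above the mesothelial rule cells (log2 3.28, 3.06 to 3.51).

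**Figure D1:**
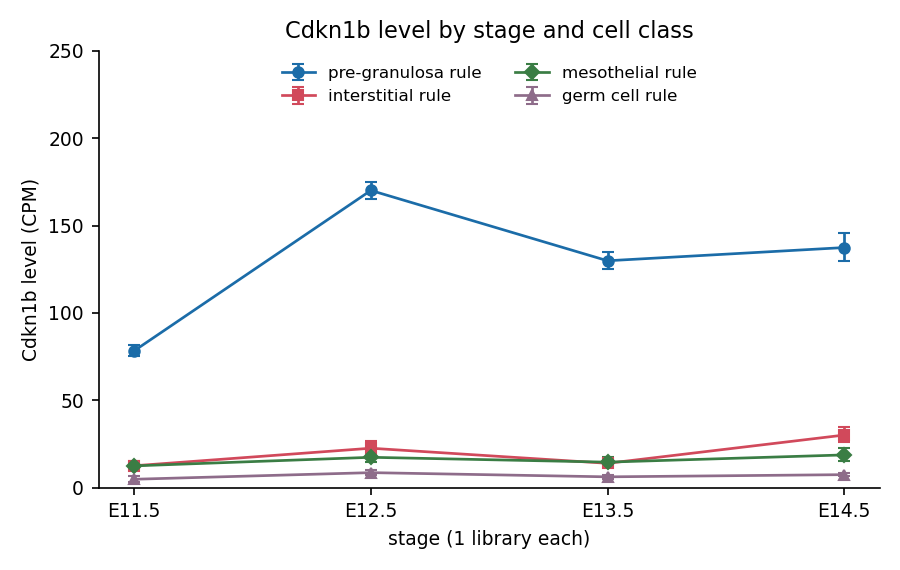
Cdkn1b level (CPM of summed UMIs, linear axis from 0) by embryonic stage in the pre-granulosa, mesothelial, interstitial and germ rule cells, with exact Poisson 95% intervals that cover counting error only. In each library the pre-granulosa rule cells were highest, from 78.4 CPM at E11.5 to 170 CPM at E12.5, and the other 3 classes stayed at or under 30.2 CPM.

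Across stages, Cdkn1b was lowest at E11.5 with 78.4 CPM (75.4 to 81.5) and highest at E12.5 with 170 CPM. The E13.5 rule cells had 130 CPM (125 to 135) and those of E14.5 had 137 CPM (130 to 146). In stage order it was counted in 56.9%, 72.7%, 66.0% and 65.1% of the rule cells, and after thinning in 31.3%, 48.9%, 43.4% and 42.0%. The E12.5 level was 2.17-fold that at E11.5 (log2 1.12, 1.05 to 1.19), which passed the limit of 2-fold set for comparisons between libraries. The E13.5 level was below the E12.5 level (log2 -0.39, -0.46 to -0.32) and did not pass it, and the intervals of E13.5 and E14.5 overlapped. Without the 172 cells with a Y-linked UMI the E14.5 level was 134 CPM.

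No other inhibitor gene passed the limit in this split. Cdkn1c, the imprinted gene of the related inhibitor p57, was counted at 3145 CPM in members with and 2525 CPM in members without Cdkn1b (log2 0.32, 0.29 to 0.34). Cdkn1a (p21) stood at 60.7 and 70.3 CPM and Cdkn2d (p19) at 27.5 and 22.5 CPM. A gene was called here when it had at least 50 UMIs over the groups and at least 20 CPM in the higher, its levels differed at least 1.5-fold, and their Poisson intervals did not overlap. Of 5639 genes that met the minimums, 126 were higher (2.23%) and 54 lower (0.958%) in members with Cdkn1b, with a median log2 of 0.02. Of the 12 inhibitor and pocket protein genes other than Cdkn1b, 5 met the minimums and none was called.

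The same held for the genes that act on p27. Skp2 and Cks1b, subunits that mark p27 for degradation, stood at 48.6 and 49.0 CPM and at 166 and 223 CPM with and without Cdkn1b. Foxo3, an activator of Cdkn1b transcription, stood at 30.2 and 22.4 CPM. None of the 9 p27 regulators that met the minimums was called. Among the G1 cyclins and kinases none of 7 was called either. Ccnd1 (cyclin D1) stood just short of the limit at 20.9 and 30.9 CPM (log2 -0.56, -0.79 to -0.33), Cdk4 at 624 and 707 CPM and Cdk6 at 35.4 and 26.5 CPM. Without the mixed cells 1 of the 7 was called lower. The same count was found among members with under 20 G2 and mitosis UMIs (below).

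Genes of G2 and mitosis were lower in members with Cdkn1b. Of the 28 genes of the list that met the minimums, 18 were lower and none was higher, 27 had a negative log2, and the median was -0.83, with a range of -1.11 for Cenpf to 0.30 for Ckap5. Summed over the list, members with Cdkn1b had 1435 CPM and members without had 2269 CPM (log2 -0.66, -0.69 to -0.63). The 20 called genes on the cell cycle and histone lists made up 37.0% of all 54 lower genes, where these lists held 65 of the 5639 genes that met the minimums.

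The lower genes span the steps of division. Cenpf, a kinetochore protein, stood at 40.9 CPM with and 88.3 CPM without Cdkn1b (log2 -1.11, -1.25 to -0.96). Ube2c, the ubiquitin-conjugating enzyme of the anaphase-promoting complex, stood at 68.4 and 142 CPM (log2 -1.05, -1.16 to -0.94). Mki67, the proliferation antigen Ki-67, stood at 14.2 and 29.4 CPM (log2 -1.05, -1.30 to -0.79). For these 3 genes the level with Cdkn1b was 0.464, 0.483 and 0.484 times that without. Top2a, which untangles sister DNA, stood at 60.6 and 116 CPM (log2 -0.94, -1.06 to -0.81). Cdc20, which activates the anaphase-promoting complex, stood at 22.9 and 44.1 CPM (log2 -0.94, -1.15 to -0.74). The mitotic cyclins Ccnb1 (22.4 and 44.3 CPM) and Ccnb2 (20.5 and 41.0 CPM), their kinase Cdk1 (27.6 and 49.6 CPM) and the chromosomal passenger gene Birc5 (47.2 and 95.6 CPM) were lower too. Further lower genes of division that stand on none of the lists included Kif22, a chromosome motor (9.82 and 22.8 CPM), and Spc24, a kinetochore subunit (14.2 and 31.9 CPM).

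S phase genes moved less. None of the 27 that met the minimums was called, although 26 had a negative log2 and the median was -0.32, with Ubr7 the exception at 0.12. The sum was 1445 CPM with and 1754 CPM without Cdkn1b (log2 -0.28, -0.31 to -0.25). Of 10 histone genes, Hist1h2ap (151 and 236 CPM) and Hist1h2bc (20.9 and 33.1 CPM) were lower, and 9 had a negative log2. Histone genes have near-identical copies, as do the alpha-globin genes, so the split of reads among them is uncertain.

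**Figure D2:**
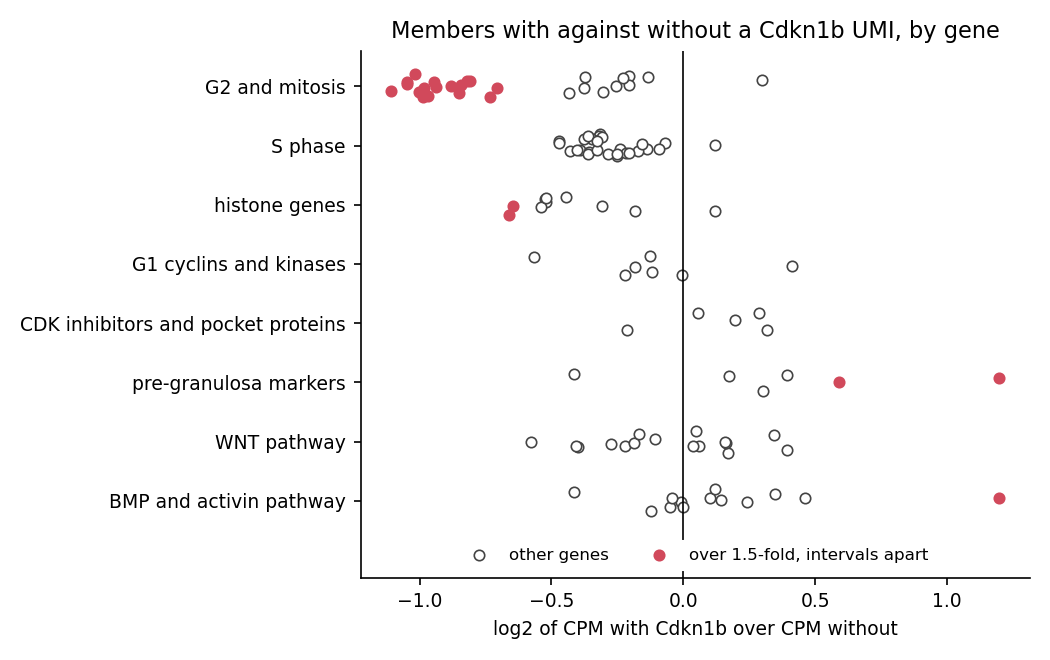
Log2 ratio of CPM in members with against members without Cdkn1b, 1 point per gene that met the minimums, for 8 gene lists. Filled points are genes that differ over 1.5-fold with intervals apart. The G2 and mitosis points lie almost all left of 0, down to -1.11, the S phase points sit around -0.32, and Fst stands highest among the pre-granulosa markers at 1.20.

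The number of Cdkn1b UMIs ordered the members further. Members with 0, 1, 2 and 3 or more Cdkn1b UMIs (606, 503, 366 and 741 cells) had 2269, 1970, 1472 and 1060 CPM of the G2 and mitosis list. The S phase list went from 1754 to 1633, 1557 and 1265 CPM, and the histone list from 2331 to 2002, 1734 and 1438 CPM. The 6 pre-granulosa markers ran the other way, at 1136, 1321, 1504 and 1772 CPM. Of these 6, Fst, Wnt4, Irx3 and Runx1 also chose the members, and in the split below Fst and Irx3 had the largest ratios while Bmp2 had the opposite sign. The median depth was 11970, 11854, 11831 and 11632 UMIs, so the 4 groups had like depths. The 3 cycle lists were lower, and the markers higher, at each step, with intervals that did not overlap between neighbours.

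**Figure D3:**
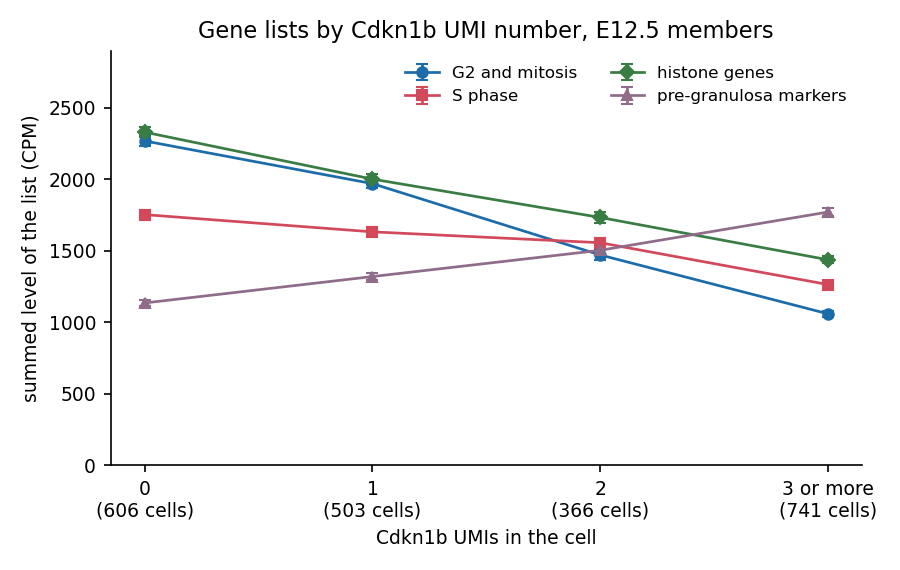
Summed level (CPM) of the G2 and mitosis, S phase, histone and pre-granulosa marker lists in members with 0, 1, 2 and 3 or more Cdkn1b UMIs, with Poisson 95% intervals. G2 and mitosis drops from 2269 to 1060 CPM while the pre-granulosa markers climb from 1136 to 1772 CPM.

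The difference lay in a minority of cells. After thinning to 5000 UMIs, a member had a median of 4 G2 and mitosis UMIs without Cdkn1b and 3 with it, but the 90th percentile was 27 and 7. At least 20 such UMIs were found in 153 members (6.90%, 5.88 to 8.04%). They made up 11.2% (8.82 to 14.01%, 68 cells) of members without Cdkn1b and 5.28% (4.24 to 6.49%, 85 cells) of members with it. Among the 741 members with 3 or more Cdkn1b UMIs the share was 2.97% (22 cells). In the same library it was 52.2% of mesothelial rule cells, 61.4% of interstitial rule cells and 94.99% of germ cells (588 of 619).

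Read the other way, the 153 members with at least 20 G2 and mitosis UMIs had 71.5 CPM of Cdkn1b, and the other 2063 members had 180 CPM. The 153 cells were deeper (median 17025 against 11664 UMIs), yet Cdkn1b was counted in 55.6% of them against 73.9%, and after thinning in 22.2% against 50.8%. When the 153 cells were left out, the list differed by a log2 of only -0.03 between members with and without Cdkn1b, and the called genes went from 126 higher and 54 lower to 118 and 23, of which 101 and 20 were among the 126 and 54. That alternative was chosen after seeing the data and removes cells by the very genes it then sums.

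**Figure D4:**
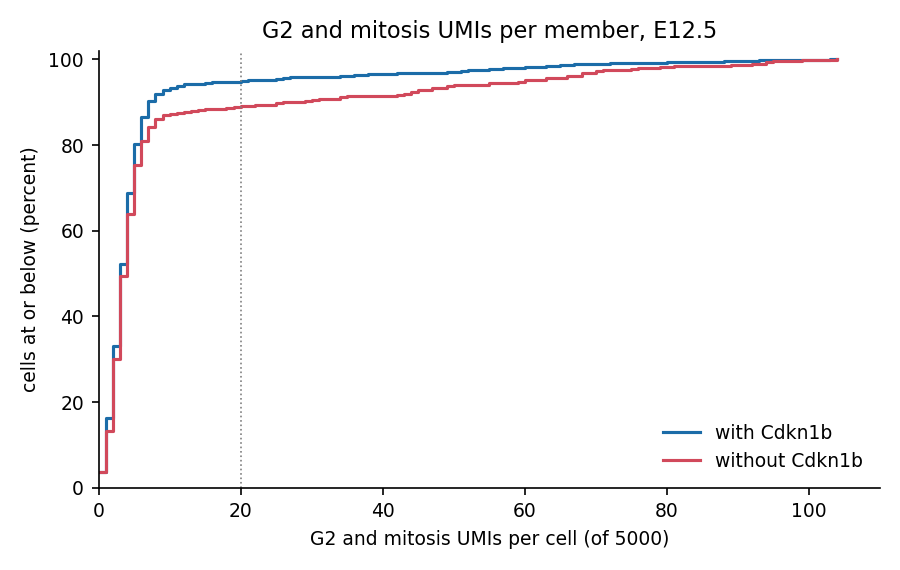
Cumulative percent of members by the number of G2 and mitosis UMIs in a cell thinned to 5000 UMIs, for members with and without Cdkn1b, with a dotted line at 20 UMIs. The curves separate in the upper tail, where 11.2% of members without Cdkn1b and 5.28% of members with it lie at or beyond the line.

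Depth, doublets and stage were checked beside this result. Within 4 bins of depth with like numbers of cells, from shallow to deep, the G2 and mitosis log2 was -0.57, -0.41, -0.50 and -0.83. In the deepest bin the level itself was higher, at 2545 CPM with and 4517 CPM without Cdkn1b, against 720 and 1072 CPM in the shallowest. Doublet calls made up 4.60% of members with and 3.47% of members without Cdkn1b, and without them the log2 was -0.71. It was -0.68 without the 31 mixed cells and -0.64 without the 141 members with at most 1 Xist UMI. The E11.5 rule cells gave -0.13 (-0.16 to -0.11) and the E13.5 rule cells -0.67 (-0.70 to -0.63). Those of E14.5 gave -0.56 (-0.61 to -0.51), or -0.50 without the cells with a Y-linked UMI. At E11.5 the level did not fall with each step, at 1883, 2184, 1460 and 1104 CPM for 0, 1, 2 and 3 or more Cdkn1b UMIs. The E14.5 rule cells also broke the order, at 2000.4, 1343, 1877 and 1090.1 CPM.

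Of the 6 pre-granulosa markers, 2 were called higher with Cdkn1b and none lower, and the rule had used both. Fst stood at 330 CPM with and 144 CPM without Cdkn1b (log2 1.20, 1.11 to 1.29), and Irx3, a homeobox gene of the supporting lineage, at 343 and 228 CPM (log2 0.59, 0.52 to 0.66). Wnt4 (280 and 213 CPM, log2 0.39), Kitl (431 and 350 CPM, log2 0.30) and Runx1 (108 and 96.2 CPM, log2 0.17) did not pass the limit. Bmp2 had the opposite sign at 79.0 and 105 CPM (log2 -0.41, -0.53 to -0.29). All 6 markers were counted in 20.7% of members with and 13.2% of members without Cdkn1b. Irx3 passed narrowly, at 1.51-fold against the limit of 1.5.

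Among 13 gonadal transcription factor genes that met the minimums, Irx3 was the only one higher. Hmga2, a chromatin protein gene of fetal growth, was lower at 162 against 262 CPM (log2 -0.70, -0.78 to -0.62). Wt1 (472 and 455 CPM), Gata4 (127 and 113 CPM) and Nr5a1 (65.7 and 70.4 CPM) were close, and Lhx9 stood at 257 and 326 CPM (log2 -0.34, -0.41 to -0.28). No gene of the WNT pathway list (16 met the minimums, 8 of each sign) was called, with Axin2 at 36.0 and 43.5 CPM, Lgr5 at 22.1 and 21.3 CPM and Rspo1 at 105 and 82.4 CPM. Among members with under 20 G2 and mitosis UMIs, 1 of 14 WNT pathway genes was called lower. In the BMP and activin list Fst was the single call among 13, and in the retinoic acid list Crabp2, which carries retinoic acid in the cell, was lower at 11.8 against 25.2 CPM. No gene was called among the NOTCH (4 met), cholesterol synthesis (10), matrix (12), hypoxia and glycolysis (11), imprinted growth (12), steroidogenesis (3) and testis (2) lists.

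Hadha (366 and 214 CPM) and Hadhb (216 and 115 CPM), the subunits of the mitochondrial trifunctional protein of fatty acid oxidation, were higher. Other genes with large ratios were Ccdc182 (103 and 38.4 CPM), the transcriptional repressor gene Bhlhe41 (59.4 and 22.8 CPM), the X-linked homeobox gene Rhox8 (45.3 and 17.5 CPM) and Gatm, of creatine synthesis (28.6 and 11.8 CPM). Bst2 (tetherin, 319 and 186 CPM) and the secreted ligand gene Gas6 (229 and 143 CPM) were higher as well. Beyond division, the lower genes included Mdk, the growth factor midkine (578 and 995 CPM), Plac8 (37.6 and 76.7 CPM), Calb1, a calcium-binding protein gene (20.3 and 41.6 CPM), Pdgfc (10.5 and 21.3 CPM) and Alcam, a cell adhesion gene (36.7 and 66.3 CPM).

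Blood transcripts topped the list of higher genes and were carried by few cells. All 7 haemoglobin genes that met the minimums and S100a8 and S100a9, genes of neutrophils, were higher with Cdkn1b, by log2 1.74 to 2.65 for the haemoglobin genes. Of the 13 members with over 1% erythroid UMIs, 12 were in the group with Cdkn1b. Without the mixed cells S100a9 stood at a log2 of -0.14, Hbb-y at -0.05 and Hba-x at -0.12, and per cell the erythroid median was 612 CPM with and 621 CPM without Cdkn1b. With that set left out, a step added after the data were seen, 116 of the 126 higher genes and 53 of the 54 lower genes were called again. Upk3b, a mesothelial gene that the rule used, was lower with Cdkn1b at 13.3 against 25.2 CPM. The sum of the further mesothelial genes was 713 and 689 CPM and of the further interstitial genes 183 and 208 CPM. Germ cell genes outside the rule summed to 37.6 and 26.3 CPM (log2 0.52, 0.30 to 0.74), and Utf1, one of them, was higher with Cdkn1b at 22.0 and 12.2 CPM. The part of these cell types in the split was not tested.

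Across the 2216 members thinned to 5000 UMIs, the genes most like Cdkn1b by Pearson correlation of log values included Fst (r = 0.32), Malat1 (0.30), mt-Co1 (0.29) and Hadha (0.27), of 5233 genes counted in at least 10% of cells. Mdk was the most unlike (r = -0.30), followed by ribosomal protein and translation genes such as Rps2, Rplp0 and Eef1a1. These cells share 1 library, the values are sparse and the correlations are descriptions only.

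Comparison with the mirror-image classes shows where the members stood in their own library. Their genes were set by the same choice, so these values are descriptions. At a limit of 2-fold, 565 of 6182 genes were higher (9.14%) and 623 lower (10.1%) in members than in interstitial rule cells. Against mesothelial rule cells, 429 of 6046 genes were higher (7.1%) and 439 lower (7.26%). Outside the rule, Rhox8 was at 37.7 CPM in members and 0.708 CPM in interstitial rule cells, Ccdc182 at 85.7 and 2.48 CPM, and Gng13, a G protein subunit gene, at 433 and 15.05 CPM. Bst2 was at 283 CPM in members and 9.66 CPM in mesothelial rule cells, and Bhlhe41 at 49.4 and 0.925 CPM. Cdkn1c stood at 2976 CPM in members, 481 CPM in interstitial and 701 CPM in mesothelial rule cells. Division genes were lower in members: 48 of 49 genes of the G2 and mitosis list against interstitial rule cells (median log2 -2.47) and 45 of 47 against mesothelial rule cells (-2.22). Of the S phase genes, 22 of 35 and 21 of 34 were lower.

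Between E11.5 and E12.5, 124 of 5803 genes were higher (2.14%) and 119 lower (2.05%) at the later stage, with a median log2 of -0.09. Of 14 WNT pathway genes that met the minimums, 4 were higher at E12.5, and 9 of the 14 had a positive log2. Axin2, a direct target of beta-catenin, stood at 15.1, 38.0, 50.9 and 76.5 CPM in stage order (log2 1.33, 1.18 to 1.49, for the first step). Lgr5, the receptor for R-spondins, stood at 6.81, 21.9, 37.9 and 62.4 CPM in stage order, and Nkd1, a feedback inhibitor, at 29.5, 77.0, 109 and 118 CPM. With Sp5 (41.4 and 103 CPM), these were the 4 genes called, and none was called lower. Wnt4 (298 and 262 CPM) and Rspo1 (113 and 98.5 CPM), their upstream ligands, were not called, but Wnt4 is a rule gene that chose the cells.

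Several genes of the supporting lineage differed between these stages. Irx3 and Fst are rule genes that chose the cells at each stage, so their levels across stages are descriptions of chosen cells. Irx3 stood at 64.5, 311, 407 and 381 CPM in stage order (E12.5 over E11.5 log2 2.27, 2.202 to 2.34), and Gng13 at 123, 433, 795 and 1123 CPM. Kitl stood at 234, 409, 275 and 342 CPM and Fst at 275, 279, 351 and 230 CPM, and neither was called in either step. Igf2, the imprinted growth factor gene, was highest at E12.5, at 129, 379, 161 and 153 CPM. Id1, a target of BMP signalling, rose from 143 to 359 CPM over the same step, the single call among 13 BMP and activin genes. Adamts19, a metalloprotease gene, had the largest ratio among the higher genes, at 1.20 and 28.9 CPM (log2 4.60, 4.13 to 5.10). Among the lower genes, the platelet genes Ppbp (35.2 and 0.205 CPM) and Pf4 (107 and 3.56 CPM) had the largest ratios. Without the mixed cells their log2 went from -7.42 to -4.29 and from -4.91 to -1.14, and the sign of Pf4 reversed with no germ cell gene allowed (0.12) and with 4 supporting genes (0.82).

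Of the genes that met the minimums, 3 of 4 on the testis list and 1 of 4 on the steroidogenesis list were lower at E12.5 than at E11.5. Cst9, a cystatin gene found in Sertoli cells, stood at 59.1, 11.6, 6.56 and 5.49 CPM in stage order. Dmrt1, a transcription factor gene of the testis pathway, stood at 30.0, 8.52, 3.46 and 1.59 CPM, and Ptgr1 at 170, 59.3, 46.3 and 51.7 CPM. None of the 4 testis list genes was higher. Nr0b1, encoding the nuclear receptor DAX1, stood at 75.6 and 25.5 CPM (log2 -1.57, -1.69 to -1.45), and Cyp11a1, the enzyme of the first step of steroid synthesis, at 54.9 and 5.06 CPM (log2 -3.44, -3.69 to -3.20). All 12 hypoxia and glycolysis genes and all 12 cholesterol synthesis genes that met the minimums had a negative log2, and 2 and 1 of them were called. Among all 5803 genes that met the minimums, 3435 had a negative log2 and 2.05% were called lower.

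The cell cycle lists did not move as one between E11.5 and E12.5. None of 23 G2 and mitosis genes and none of 26 S phase genes was called, and the share of rule cells with at least 20 G2 and mitosis UMIs was 6.38% and 6.90%. Of 10 histone genes, the linker histone genes Hist1h1b (7.85 and 50.6 CPM) and Hist1h1e (7.42 and 49.0 CPM) were higher and Hist1h2bc was lower (log2 -1.25). Cdkn1b itself was the single call among 6 inhibitor genes, and Cdk6, a G1 kinase, was higher at 14.8 and 33.0 CPM. Of 15 early response genes, which dissociation can induce, 2 were higher and 3 lower, with Egr1 at 67.4 and 187 CPM and Hspa1a at 38.3 and 5.44 CPM, and their part in the other differences was not tested.

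Between E12.5 and E13.5 fewer genes differed: 30 of 5747 were higher (0.522%) and 25 lower (0.435%), with a median log2 of -0.04. Division genes were lower at E13.5, with Tpx2 (27.2 and 11.2 CPM), Cenpe (25.8 and 10.9 CPM) and Cenpf (53.8 and 24.3 CPM) called among 22 genes of G2 and mitosis, all 22 of which had a negative log2 (median -0.64). The share of rule cells with at least 20 G2 and mitosis UMIs was 3.68% in the E13.5 library, against 6.90% a stage earlier and 6.72% a stage later. Hist1h1b and Hist1h1e, higher at E12.5 than at E11.5, were lower again at E13.5 (8.49 and 11.4 CPM). Igf2 was lower at E13.5 (log2 -1.24, -1.29 to -1.18).

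Aldh1a1, an enzyme that makes retinoic acid, stood at 18.3, 31.9, 79.8 and 176 CPM in stage order, and was called between E12.5 and E13.5 (log2 1.32, 1.21 to 1.44). Hes1, a target of NOTCH signalling, stood at 37.1, 50.1, 109 and 109 CPM (log2 1.12, 1.03 to 1.21 for the same step). Gatm and Gstm6, both higher in E12.5 members with Cdkn1b, were also higher at E13.5 than at E12.5, at 86.5 against 24.0 CPM and 151 against 50.2 CPM. Other genes higher with Cdkn1b went the other way without passing the limit of 2-fold. Hadha stood at 325 CPM at E12.5 and 233 CPM at E13.5, and Angptl4 at 91.4 and 72.3 CPM. How many genes of the split went each way between these stages was not counted. The largest ratio among the genes higher at E13.5 was that of Klf2 (25.9 and 105 CPM), which is on the early response list. All 14 early response genes that met the minimums had a positive log2, and Klf2 and Jund (195 and 494 CPM) were called. The E14.5 values of the genes plotted by stage moved little without the 172 cells with a Y-linked UMI, for example from 1123 to 1149 CPM for Gng13 and from 176 to 174 CPM for Aldh1a1.

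**Figure D5:**
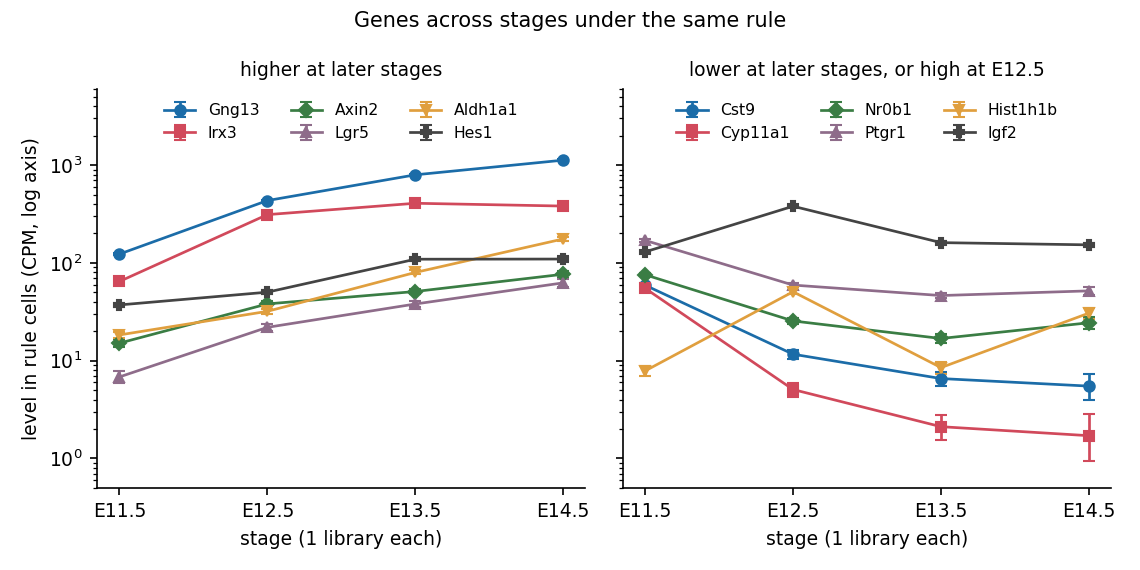
Level (CPM, log axis) of 12 genes in the rule cells by embryonic stage, with a single library behind each stage, with Poisson 95% intervals. Irx3 is a rule gene. On the left, Gng13, Irx3, Axin2, Lgr5, Aldh1a1 and Hes1 are above their E11.5 level at E14.5, and on the right, Cst9, Cyp11a1, Nr0b1 and Ptgr1 drop between E11.5 and E12.5 while Hist1h1b and Igf2 peak at E12.5.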

How the data were processed

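Single-cell RNA of 4 libraries, 1 per stage, was analysed. The authors deposited natural log values, ln(1 + UMIs of a gene / UMIs of the cell × 10000), as the values themselves show, where counts had been assumed in the plan. All 69792436 values above 0 (100%) were whole multiples of 1 UMI at a relative tolerance of 1e-06, so UMIs were recovered and used. The submitters' processing notes name Cell Ranger 2.2.0 and mm10, with no role given. Stages were read from the prefix of each cell name, and 0 columns were left unused.

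UMIs were summed over cells and given as CPM with exact Poisson 95% intervals, shares with exact Clopper-Pearson intervals, and log2 ratios with exact binomial intervals of the split of counts. Genes were called at 1.5-fold (Cdkn1b split) or 2-fold (other comparisons), with at least 50 UMIs over both groups, 20 CPM in the higher and Poisson intervals apart. The calling was tested on simulated sums with counting error only and with changes larger than the limits. That test does not cover differences between cells or changes near the limits. Thinning to 5000 UMIs per cell used a fixed random seed and left out 0 cells. Scrublet (scanpy 1.11.5, per library, 2 simulated doublets per cell, assumed rate 0.06) called 193 cells of the E12.5 library, which were kept and left out as an alternative. Python 3.11.15, numpy 2.4.6, scipy 1.17.1 and matplotlib 3.10.9 were used.

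The genes named are those of the lists, the 15 largest ratios in each direction for the Cdkn1b split and 10 for each other comparison, and the 10 genes most and least correlated with Cdkn1b. Some genes that this rule names are not reported here. Members and lists were chosen with earlier results of these data known. Motifs were searched on both strands of the 250 bases before RefSeq starts.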

Additional observations from a re-analysis of the deposited data

Results flagged for a closer look

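Some list sums had a with-to-without ratio of opposite sign at E12.5 and at another stage and intervals apart from 0 at both. The difference between stages was not tested, and with 1 library per stage it cannot be told from a difference between libraries. The inhibitor and pocket protein list, which Cdkn1c dominates and which leaves out Cdkn1b, had a log2 of 0.28 (0.26 to 0.30) at E12.5 and -0.12 (-0.16 to -0.08) at E14.5. The p27 regulators stood at -0.04 (-0.07 to -0.01) at E12.5 and 0.0448 (0.02 to 0.07) at E11.5. Early response genes stood at 0.05 (0.03 to 0.08) at E12.5 and -0.0632 (-0.08 to -0.04) at E11.5.

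Lists of other cell types showed the same kind of difference. Further mesothelial genes stood at 0.05 (0.004 to 0.09) at E12.5 and -0.0822 (-0.16 to -0.002) at E14.5, and further interstitial genes at -0.18 (-0.27 to -0.10) and 0.19 (0.07 to 0.31). Endothelial genes stood at -0.27 (-0.40 to -0.13) at E12.5 and 0.33 (0.13 to 0.53) at E14.5. Immune genes stood at 2.17 (1.88 to 2.47) at E12.5, -1.24 (-1.51 to -0.98) at E11.5 and -0.61 (-1.06 to -0.16) at E13.5. At E12.5 the immune sum rested on 1238 UMIs with and 103 UMIs without Cdkn1b, and 2 members held at least 20 immune UMIs each.

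Y-linked transcripts appeared in data labelled XX, in cells that also held Xist UMIs. At E14.5, 25.1% of the rule cells (172 of 685, 21.9 to 28.5%) had a UMI of Ddx3y, Eif2s3y, Kdm5d or Uty, 323 UMIs in all, and none of the rule cells of the other 3 libraries did. The E14.5 cells with and without such a UMI had 146 CPM (131 to 163) and 134 CPM (125 to 144) of Cdkn1b, 13.6 CPM (9.20 to 19.5) and 8.16 CPM (6.04 to 10.8) of Sox9, and 0.909 and 1.00 CPM of Amh.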

How the results depend on the processing

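No paired analysis was possible because each stage has 1 library. The share of members with Cdkn1b moved from 72.7% to 77.7% with at least 4 supporting genes required, 48.9% after thinning and 69.7% in the 2 middle bins of depth. The G2 and mitosis log2, -0.66, was -0.85 with 4 supporting genes, -0.71 without doublets, -0.94 after thinning, -0.48 in the 2 middle bins of depth, -0.93 with 2 UMIs required for the group with Cdkn1b, -0.63 as a mean over cells, -0.71 with median-of-ratios scaling and -0.0272 under 20 such UMIs. The S phase log2, -0.28, was -0.31 without doublets, -0.24 in the 2 middle bins of depth, -0.37 with 2 UMIs required, -0.33 with median-of-ratios scaling and -0.24 under 20 G2 and mitosis UMIs. Calls in the split, 180, were 301 (218 higher, 83 lower) with 2 UMIs required, 717 without minimums and 31 at 2-fold. After thinning they were 127 higher and 64 lower, of which 76 and 39 were among the 126 and 54. Without minimums, calls were 1297 against 243 (E12.5 over E11.5), 531 against 55 (E13.5 over E12.5), 3261 against 1188 (interstitial) and 2818 against 868 (mesothelial), and at 4-fold 42, 4, 485 and 280. Signs reversed under 20 G2 and mitosis UMIs for Cenpf (0.66), Nusap1 (1.14), Ccna2 (0.0367), Cdca8 (0.0290), Cdca3 (0.0503), Top2a (0.0288), Ccnb1 (0.11) and S100a8 (-0.0458). Without mixed cells they reversed for S100a9 (-0.14), Hbb-y (-0.0454) and Hba-x (-0.12) in the split and for S100a8 between stages (-1.09 for E12.5 over E11.5, 1.23 for E13.5 over E12.5). S100a9 also reversed in the 2 middle bins of depth (-0.19) and with 2 UMIs required (-0.40), and Pf4 (E12.5 over E11.5) with no germ cell gene allowed (0.12) and with 4 supporting genes (0.82). Where an alternative removes cells by the same genes, or leaves fewer cells, its construction sets the move, and for the others the cause was not tested. Of 1007 values over 128 genes, 763 stayed within their interval, 227 moved and 17 reversed. With a median of 1 Cdkn1b UMI per cell, a cell with no UMI is not shown to lack the transcript.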

Other observations

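Some lipid oxidation genes and some interferon-related genes were higher in E12.5 members with Cdkn1b. These genes and lists were chosen after the values were seen, so the counts are descriptions. Of 23 genes on a list of lipid oxidation and related steps that met the minimums, 8 were higher and none lower. Over all 5639 genes that met the minimums, 126 (2.23%) were higher and 54 (0.958%) lower. Those of fatty acid oxidation included Slc25a20, which carries acylcarnitine into mitochondria (68.3 CPM with and 41.8 CPM without Cdkn1b), the dehydrogenase gene Acadl (129 and 84.3 CPM), Etfdh (38.7 and 25.7 CPM) and Acot2 (41.5 and 23.9 CPM). Angptl4, an inhibitor of lipoprotein lipase, stood at 104 and 57.3 CPM. Of 22 interferon-related genes, 11 met the minimums and 7 were higher (Bst2, Ifi27, Ube2l6, Uba7, Ifnar1, Tapbp and Apobec3), with sums of 977 and 649 CPM (log2 0.59, 0.54 to 0.63). The mesothelial and interstitial rule cells had 227 and 342 CPM of that list, and 1451 and 1516 CPM of the lipid list. In stage order, the pre-granulosa rule cells had 4849, 3024, 2610 and 2670 CPM of the lipid list. For the interferon-related list they had 1406, 888, 973 and 1073 CPM. Both lists were thus highest at E11.5, where Cdkn1b was lowest, so across stages they did not follow Cdkn1b.

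Growth genes had the opposite sign with small sizes. Of 18 ribosome biogenesis genes, 17 had a negative log2 and 1 was called, with sums of 3792 and 4582 CPM (log2 -0.27, -0.29 to -0.26). The cytosolic ribosomal protein genes (80 met the minimums, none called) differed by a log2 of -0.06, and the 12 mitochondrial genome genes by 0.10.

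Motif letters differed between the called groups. Of the 54 lower genes, 41 matched a promoter entry, and 10 (24.4%) held a CHR core and 26 (63.4%) a CCAAT box. The 41 included 16 genes of the G2 and mitosis list, which made up 7 of those 10 and 14 of those 26. Of the 126 higher genes, 97 matched, and 6 (6.19%) held a CHR core and 39 (40.2%) a CCAAT box. Over all 27025 RefSeq genes with an entry the shares were 16.3% and 34.5%.

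At E12.5, 141 members (6.36%, 5.38 to 7.46%) had 0 or 1 Xist UMI, 18 had 2 to 4, and the median was 28. In the E11.5, E13.5 and E14.5 rule cells the share with 0 or 1 was 0.0462%, 0.279% and 0%. The mesothelial and interstitial rule cells of E12.5 had 5.57% and 9.33%. The 141 members stood at 18.8 CPM of Xist, 2.35 CPM of Tsix and 1.18 CPM of Erdr1, and the other 2075 at 2344, 52.1 and 33.8 CPM. Tsix is antisense to Xist, and whether counting used strand was not given in the sources used here. Cdkn1b was at 197 and 168 CPM in these sets and was counted in 70.9% and 72.8% of cells.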
